A study of Mus musculus with 4 samples.

Results

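The genes described here are the collagen, laminin and integrin genes of the Hepa1-6 data set, chosen by symbol alone: every gene named Col with a type and chain number, every laminin alpha, beta or gamma chain gene, and every integrin alpha or beta subunit gene. The rule found 81 of the 54838 genes listed, of which 44 were collagens, 11 laminins and 26 integrins. Hepa1-6 is an established mouse hepatocellular carcinoma cell line. RNA was sequenced from 2 cultures labelled NC, with the genotype Acvr2a wild type, and 2 labelled KO, with the genotype Acvr2a knockout. Acvr2a encodes a type II receptor for activin. The design text speaks of KO subclones, and whether KO 1 and KO 2 come from different clones is not given. No treatment or time point is given for either group.

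Collagens are triple-helical proteins built from alpha chains. Some form fibrils, type IV forms the sheet of basement membranes, and others link or decorate these networks. Laminins are cross-shaped trimers of an alpha, a beta and a gamma chain that polymerise into the second sheet of the basement membrane. Integrins are cell-surface dimers of an alpha and a beta subunit that bind these ligands outside the cell and the actin cytoskeleton inside it. The normal liver sinusoid holds little continuous basement membrane, while hepatocellular carcinoma cells are known to produce laminins and to carry laminin-binding integrins.

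Library totals were between 11597923 and 13910582 counts. Of the 81 genes, 41 passed edgeR's filter on low counts and were tested, 27 had a count but stayed under it, and 13 had none in any library. Levels are given as the authors' TPM (a transcript's share of the library, scaled for its length) and differences as log2 fold changes of KO over NC from edgeR's quasi-likelihood test on the counts, with Benjamini-Hochberg adjustment over all 12510 genes tested and a threshold of 0.05. Over all those genes 37.9% passed this threshold, 19.7% higher and 18.2% lower in KO, so single calls are common in this comparison. NC and KO values lay apart, without overlap, for 69.4% of all genes tested, with KO higher for 34.8%. Of the 41 tested members 26 were called higher and 1 lower, and in 35 the groups did not overlap. The RNA of the targeted gene Acvr2a did not separate the groups (CPM, counts per library scaled to a common depth, 7.46 ± 0.48 in NC against 6.44 ± 1.05 in KO, SD, n = 2 each, log2 fold change -0.21, SE 0.20, adjusted p = 0.433 in edgeR's quasi-likelihood test), so NC and KO stand for libraries labelled as such. Nothing in the labels says that the cultures of a group were grown apart, so p-values measure the spread between these samples only.

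Defining markers of other cell types were read in the same libraries, since several collagens and integrins are made mainly by fibroblasts, endothelial cells or leukocytes. Of the 10 fibroblast and stellate cell markers 4 were at 0 in all libraries (Lrat, Thy1, Lum and Reln), while the summed level was 1036 and 1099 TPM in NC and 1241 and 1244 TPM in KO, nearly all of it Dcn. Pdgfra (log2 fold change 0.97) and Des (1.28) were called higher. The 9 endothelial markers summed to between 0.99 and 2.43 TPM, with Tek, Cdh5 and Emcn at 0. Of the 3 tested, Eng was called higher (log2 fold change 1.32, 0.46 and 0.52 TPM in NC against 1.44 and 1.28 TPM in KO). Vwf (-0.24) and Pecam1 (-0.17) did not pass. The 10 leukocyte markers summed to 24.7 and 29.4 TPM in NC and 57.4 and 70.3 TPM in KO, nearly all of it the lysosomal gene Cd68 (log2 fold change 1.20), with Tyrobp and Cd3e among those at 0 and Ptprc at no more than 0.04 TPM. Of the 9 hepatocyte markers 8 were tested, 2 higher and 2 lower in KO, and the summed level was 2594 and 2484 TPM in NC and 2995 and 2849 TPM in KO. Alb and Trf were the higher markers, Afp (-1.21) and Hnf4a (-0.995) the lower ones, and Ttr was at no more than 0.1 TPM. The part of these shifts in the results for the members was not tested. In bulk RNA, more cells of a type and more RNA per cell cannot be told apart.

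The laminins moved together. Each of the 7 tested chains was higher in KO, from 1.58-fold for Lamc1 to 5.86-fold for Lama3, and the median log2 fold change was 1.20 against -0.0037 over all genes tested. Lama3 passed the filter through its KO libraries alone. A cut at a mean of at least 2 CPM across the 4 libraries treats both groups alike, though a gene high in KO alone can still meet it. Over the 6 chains that met it, 6 were higher, with a median of 1.04. Of all genes at that level 19.6% were called higher. Summed over the family, laminin RNA stood at 217 and 247 TPM in NC and at 496 and 454 TPM in KO.

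Lama5 encodes the alpha chain of the laminins found in most adult basement membranes and was the most abundant laminin RNA in both NC libraries. In KO 1 Lamb3 was higher in TPM, and in KO 2 the 2 genes were nearly equal. This order depends on gene lengths estimated in each library. For Lama5 these were 3936 and 4940 bases in NC and 5266 and 5407 in KO. For Lamb3 they were 4054 and 3064 bases in NC and 2559 and 2849 in KO, so the change of order may lie in the lengths. Lama5 measured 94.9 and 91.5 TPM in the NC libraries and 145 and 148 TPM in the KO libraries. In TPM the KO libraries lay well above the NC libraries, with little spread inside either group. In CPM Lama5 was at 330 and 385 in NC and at 629 and 687 in KO, with more spread but also without overlap. The log2 fold change was 0.88 (SE 0.10, adjusted p = 8.27e-08). Lamc1, the gamma chain that pairs with it, went from 39.8 and 46.4 TPM in NC to 63.9 and 68.9 TPM in KO, at a log2 fold change of 0.66 with an SE of 0.10 (adjusted p = 5.42e-06), again without overlap.

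The beta chains that complete a Lama5 trimer are Lamb1 and Lamb2. Lamb1 had 6.18 and 8.50 TPM in NC and 22.2 and 19.2 TPM in KO, and its log2 fold change of 1.41 with an SE of 0.11 (adjusted p = 1.29e-10) was the largest among laminin chains above 2 CPM. Lamb2 had 34.9 and 40.9 TPM in NC and 81.2 and 66.0 TPM in KO, at a log2 fold change of 0.76 with an SE of 0.09 (adjusted p = 3.23e-07). The difference was larger for Lamb1 than for its partner Lamc1. The ratio of Lamb1 to Lamc1 in TPM was 0.155 and 0.183 in NC and 0.348 and 0.279 in KO. That of Lama5 to Lamc1 in TPM was 2.38 and 1.97 in NC against 2.27 and 2.14 in KO, overlapping between groups. This overlap depends on a Lama5 length estimated anew in each library, so it does not show that the ratio stayed constant. In counts the log2 fold change was larger for Lama5 (0.88, SE 0.10) than for Lamc1 (0.66, SE 0.10). With 2 libraries against 2 an exact two-sided permutation test cannot go below 0.333, so ratios and shares are given as descriptions.

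Lama3 and Lamb3 encode an alpha and a beta chain of the laminin that anchors epithelia through hemidesmosomes. Lamb3 was at 39.1 and 57.8 TPM in NC and at 178 and 147 TPM in KO, making it the most abundant laminin beta chain in each library. In counts it went from 1596 and 2023 in NC to 4689 and 4678 in KO, a log2 fold change of 1.29 with an SE of 0.09 (adjusted p = 1.85e-11). The chains were present at very unequal RNA levels in both groups. Lama3 was close to the limit of detection, with 2 and 8 counts in NC against 20 and 43 in KO. Its log2 fold change was 2.55 (SE 0.61, adjusted p = 0.000448), and it was 3.67 without NC 2 and 1.92 without KO 2. Lama3 overlaps exons of Gm29200 on the other strand.

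**Figure D1:**
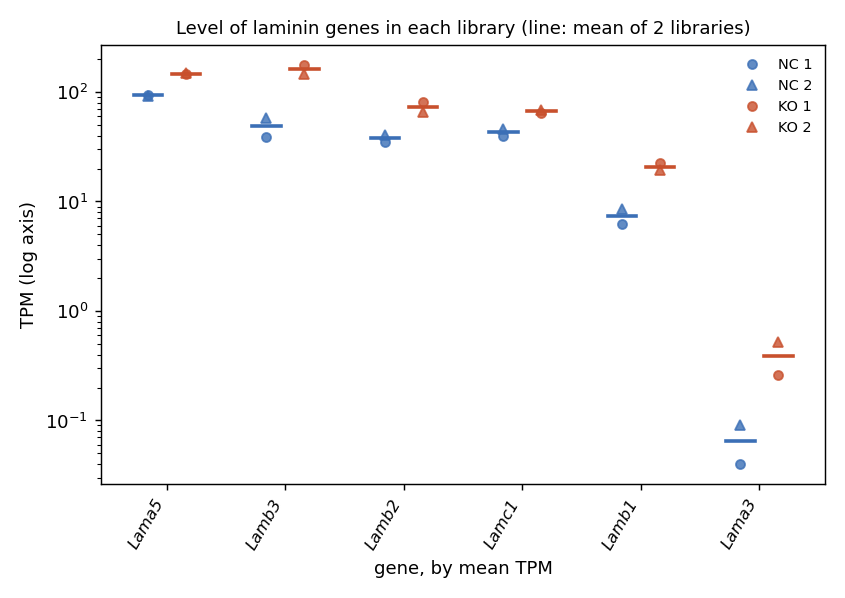
TPM of 6 tested laminin chains in each library on a log axis, with circles for replicate 1, triangles for replicate 2 and lines for the mean of each group. For each of these chains both KO libraries lie above both NC libraries, from Lama5 at 91.5 to 148 TPM down to Lama3 at 0.04 to 0.52 TPM.

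Lamb3 made up more of the beta chain RNA in the KO libraries. Its share of the summed TPM of Lamb1, Lamb2 and Lamb3 was 48.8% and 53.9% in NC and 63.2% and 63.4% in KO, while that of Lamb2 was 43.5% and 38.1% in NC and 28.9% and 28.4% in KO. The TPM of Lamb3 depends on a gene length that the authors' program re-estimated in each library, at 4054 and 3064 bases in NC and 2559 and 2849 bases in KO. With 1 length per gene in all libraries the share was 53.4% and 53.8% in NC and 61.1% and 59.8% in KO, still without overlap but closer. The length of Lama5 moved the other way, from 3936 and 4940 bases in NC to 5266 and 5407 bases in KO, so its rise is larger in counts than in TPM.

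**Figure D2:**
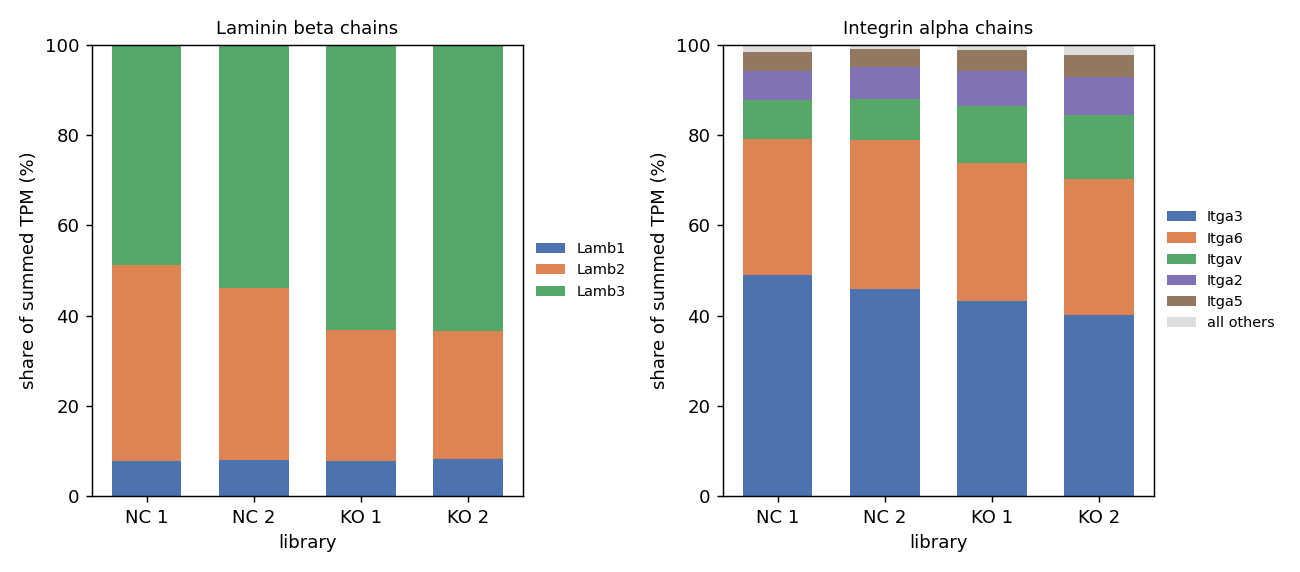
Share of each gene in the summed TPM of the laminin beta chains (left) and the integrin alpha chains (right), in percent, with 1 bar per library. The Lamb3 part grows from 48.8% and 53.9% in NC to 63.2% and 63.4% in KO, and the Itgav part from 8.58% and 9.13% to 12.7% and 14.1%.

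The 4 other laminin genes were at or near 0. Lama1 and Lamc3 had no count, Lama2 had 1 count in each KO library and Lama4 had 1 count in NC 2. A count of 0 allows a level of up to 0.259 CPM in the shallowest library and 0.216 CPM in the deepest (3 counts per library, counting error only).

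The promoter stretches of Lama5, Lamb1 and Lamb3 are shown as 3 examples from the genes higher in KO. Lama5 and Lamb1 can share a trimer, and Lamb3 is a chain of another. They come from RefSeq (GRCm38.p6), are written 5′ to 3′ on the gene's strand, and cover up to 250 bases before the start that RefSeq gives, less any base inside an annotated exon. The Lama5 stretch is chr2:180225860-180226109 (minus strand), the Lamb1 stretch chr12:31265043-31265233 (plus strand) and the Lamb3 stretch chr1:193301744-193301992 (plus strand, at the most upstream start given for Lamb3 in the RefSeq promoter table, inside the longer GENCODE gene model). Capitals mark matches, on either strand, to a GC box with the letters GGGCGG, a box with the letters CCAAT, or a SMAD-type element with the letters CAGACA.
Lama5: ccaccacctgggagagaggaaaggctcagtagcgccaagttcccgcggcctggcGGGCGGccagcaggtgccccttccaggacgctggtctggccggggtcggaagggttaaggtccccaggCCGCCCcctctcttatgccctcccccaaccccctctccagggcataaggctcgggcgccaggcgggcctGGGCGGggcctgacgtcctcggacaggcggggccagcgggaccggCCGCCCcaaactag
Lamb1: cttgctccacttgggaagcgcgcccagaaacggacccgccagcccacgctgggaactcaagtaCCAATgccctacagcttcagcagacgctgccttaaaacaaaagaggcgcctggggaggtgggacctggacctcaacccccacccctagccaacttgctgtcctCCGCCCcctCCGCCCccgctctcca
Lamb3: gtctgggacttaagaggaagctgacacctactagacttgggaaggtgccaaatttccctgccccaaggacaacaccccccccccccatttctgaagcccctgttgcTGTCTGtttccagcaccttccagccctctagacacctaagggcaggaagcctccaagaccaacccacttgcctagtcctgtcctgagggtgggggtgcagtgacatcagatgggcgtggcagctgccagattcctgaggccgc

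The Lama5 stretch held 4 GC boxes and was 72.4% G and C, the Lamb1 stretch held 2 GC boxes and 1 CCAAT, and the Lamb3 stretch held 1 SMAD-type element and no GC box. None of the 3 held an AP-1 site (TGANTCA), a hypoxia element core (ACGTG), a TEAD site (GGAATG) or the TATA element with the letters TATAAA. Stretches of other genes higher in KO were read but are not shown. Those of Lamb2 (124 bases), Itgav (250 bases) and Col6a1 (126 bases) held none of these motifs. In Lamb2 and Col6a1 the bases nearest the RefSeq start lie past the first annotated exon base and were left out of these stretches. That of Col18a1 held 3 GC boxes and 1 CCAAT, and that of Itga2 held 1 SMAD-type element. Promoters were listed for 58 of the 81 genes, 30 of them tested. Among the 30, 15 held a GC box, or 50.0% against 33.0% of all 27026 promoters, and 9 held the SMAD-type element, or 30.0% against 17.1%. The hypoxia element core was present in 1 of the 30, or 3.33% against 16.5%, the CCAAT box in 7 (23.3% against 34.5%), and the AP-1 site in 1 (3.33% against 6.85%). Of the 18 among them that were called higher in KO, 8 held a GC box, 4 the SMAD-type element and 6 the CCAAT box. The 30 had passed the filter on low counts, while the 27026 promoters were not filtered on expression, so the shares are not like for like. The shares were taken over the full 250-base window with exon bases kept, unlike the single stretches. All are matches of letters, and say nothing of binding.

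Lamc1 lies on chromosome 1 at 153218922 to 153332786 (GENCODE M21, GRCm38). Lamb3 lies elsewhere on the same chromosome, at 193207699 to 193343878. Lama5 is on chromosome 2, at 180176373 to 180225859, Lamb1 on chromosome 12, at 31265234 to 31329644, and Lamb2 on chromosome 9, at 108479736 to 108490530.

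**Figure D3:**
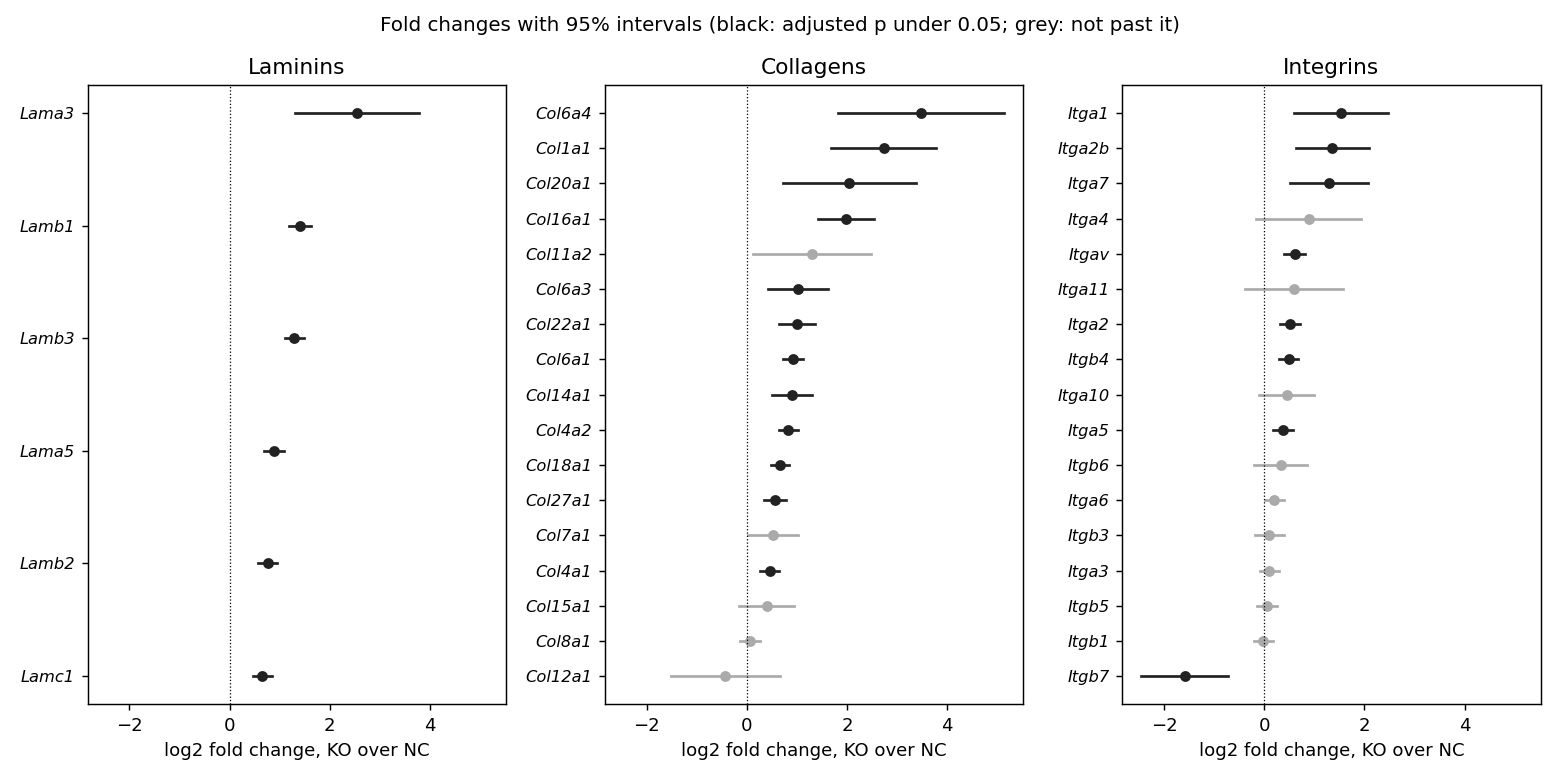
Log2 fold change of KO over NC for 6 tested laminins and each tested collagen and integrin, with points for the estimate and bars for its 95% interval. The laminin intervals shown lie above 0, 12 of 17 collagens passed the threshold as higher, and the integrins spread from -1.59 for Itgb7 to 1.54 for Itga1.

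Among the collagens, 12 of the 17 tested were higher in KO, 0 were lower and 5 did not pass, against 19.7% of all genes tested called higher. Of the 12, Col1a1, Col6a4 and Col20a1 passed the filter through their KO libraries alone, as did Col11a2 among the 5. With a mean of at least 2 CPM there were 12 collagens, of which 9 were higher and 3 did not pass, against 19.6% of all genes at that level called higher, and their median log2 fold change was 0.74. Col16a1, among the 9 higher, averaged 1.96 CPM in NC and 7.76 CPM in KO, so its KO libraries brought it to that level. The family summed to 156 and 172 TPM in NC and 268 and 263 TPM in KO. By the mean over all 4 libraries Col18a1, Col4a1 and Col4a2, all of basement membranes, were the 3 most abundant, though in both NC libraries Col8a1 was above Col4a2.

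Col18a1 encodes a basement membrane collagen with heparan sulphate chains, whose C-terminal fragment is endostatin. It measured 49.9 and 52.6 TPM in NC and 87.3 and 87.2 TPM in KO. The KO libraries were almost equal and lay far above NC, at a log2 fold change of 0.66 with an SE of 0.09 (adjusted p = 1.95e-06). Col4a1 and Col4a2 encode the ubiquitous chains of type IV collagen, which assemble into mixed trimers. Col4a1 was at 37.9 and 45.4 TPM in NC and 59.5 and 51.0 TPM in KO, and its log2 fold change was 0.45 (SE 0.09, adjusted p = 0.000347). Col4a2 was at 15.7 and 17.0 TPM in NC and 30.9 and 31.0 TPM in KO, at a log2 fold change of 0.83 with an SE of 0.09 (adjusted p = 8.27e-08).

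The difference was larger for Col4a2 than for Col4a1. The ratio of Col4a2 to Col4a1 was 0.414 and 0.375 in NC and 0.519 and 0.607 in KO by TPM, and 0.421 and 0.406 against 0.509 and 0.564 with 1 length per gene, so the groups did not overlap on either scale. The genes lie head to head on chromosome 8 and their first exons overlap over 22 bases (Col4a1 at 11198423 to 11312826 on the minus strand, Col4a2 at 11312805 to 11449287 on the plus strand). Exons of Col4a2 also overlap Gm15419 on the other strand. The call for Col4a1 was lost in limma on log2(TPM + 1) with the same genes (0.40, adjusted p = 0.0759), where that of Col4a2 was kept. The other type IV chains were nearly silent: Col4a3 had 2 and 3 counts in KO, Col4a4 had 2 counts in NC 1 and in each KO library, Col4a6 had 1 count in each KO library, and Col4a5 had none.

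Col6a1 encodes a chain of type VI collagen, the beaded filament at the edge of basement membranes. Its TPM was 12.6 and 12.7 in NC and 25.3 and 24.7 in KO, the lowest p of the collagens, at a log2 fold change of 0.93 with an SE of 0.10 (adjusted p = 3.01e-08). The chains it assembles with were scarce. Col6a2, 85.2 kb away on chromosome 10, was not tested, at 2 and 4 counts in NC against 7 and 13 in KO. Col6a3 had 30 counts in each NC library and 57 and 72 in KO, at a log2 fold change of 1.01 with an SE of 0.29 (adjusted p = 0.00663), which did not pass without KO 2 (0.85, adjusted p = 0.0998). Col6a4 had 2 counts in each NC library and 19 and 31 in KO (log2 fold change 3.48, SE 0.81, adjusted p = 7.69e-05), and its exons overlap Gm36993 and Gm47575 on the other strand.

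Fibrillar collagens were close to absent. Col1a1, the main chain of type I collagen, had 6 and 5 counts in NC against 38 and 41 in KO, or 0.10 and 0.07 TPM against 0.59 in each KO library. Its log2 fold change was 2.73 (SE 0.51, adjusted p = 3.05e-05). Its partner Col1a2 had 1 count in KO 2 and none elsewhere, and Col3a1, Col5a2 and Col11a1 had none. Col5a1 had 1 count in NC 1, Col5a3 had 6 and 2 in KO and Col2a1 had 2 and 6 in KO. Col27a1, a fibrillar collagen of cartilage and some epithelia, was the exception, at 6.87 and 9.62 TPM in NC and 12.3 and 12.7 TPM in KO (log2 fold change 0.57, SE 0.10, adjusted p = 0.000119), a call lost in limma on log2(TPM + 1) (0.56, adjusted p = 0.0657). Col11a2 was read 8 and 4 times in NC and 18 and 14 times in KO and did not pass (1.31, SE 0.58, adjusted p = 0.0616).

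The fibril-associated collagens, which bind to the surface of fibrils, included 4 of the higher genes. Col12a1, also of this class, did not pass and had a negative log2 fold change (-0.44). Col16a1 had 24 and 25 counts in NC against 102 and 105 in KO, at a log2 fold change of 1.99 with an SE of 0.27 (adjusted p = 1.18e-06). Its TPM of 0.75 and 1.51 in NC and 5.40 and 9.93 in KO spreads more than its counts, because the estimated length ran from 1108 bases in KO 2 to 3234 in NC 1. Col22a1 had 90 and 85 counts in NC against 187 and 185 in KO (log2 fold change 0.998, SE 0.18, adjusted p = 6.12e-05), and its exons overlap Gm16308 on the other strand. Col14a1 had 79 and 114 counts in NC against 148 and 233 in KO, a log2 fold change of 0.90 with an SE of 0.19 (adjusted p = 0.000465), which was 0.56 without KO 2 (adjusted p = 0.0470). Col20a1, with 5 and 3 counts in NC against 13 and 23 in KO, had a log2 fold change of 2.05 with an SE of 0.65 (adjusted p = 0.00705). It did not pass without NC 2 (1.59, adjusted p = 0.107), without KO 2 (1.60, adjusted p = 0.158) or with DESeq2 (adjusted p = 0.0821), and it shares exons with BX649560.1 on the same strand.

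The last 4 tested collagens are given to account for every member. Col8a1, a short-chain collagen, had 20.8 and 24.1 TPM in NC and 24.2 and 24.7 TPM in KO. Its groups overlapped in CPM, and the 95% interval of its log2 fold change of 0.066 ran from -0.13 to 0.26 (adjusted p = 0.616), which leaves out a rise as large as that of Col4a1. Col15a1, a basement membrane relative of Col18a1, had a log2 fold change of 0.40 in counts (SE 0.27, adjusted p = 0.249). It passed in limma on log2(TPM + 1) (0.99, adjusted p = 0.0156), where its estimated length was 2506 and 2368 bases in NC and 1312 and 1551 in KO, and its exons overlap Gm12426 on the other strand. Col7a1, the anchoring fibril collagen, had 41 and 59 counts in NC against 79 and 73 in KO and did not pass (0.53, SE 0.25, adjusted p = 0.0899). Exons of Col7a1 overlap Mir711 on the same strand. Col12a1, with between 8 and 12 counts per library, had a value of -0.44 (SE 0.53, adjusted p = 0.542) whose sign turned on the TPM scale.

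**Figure D4:**
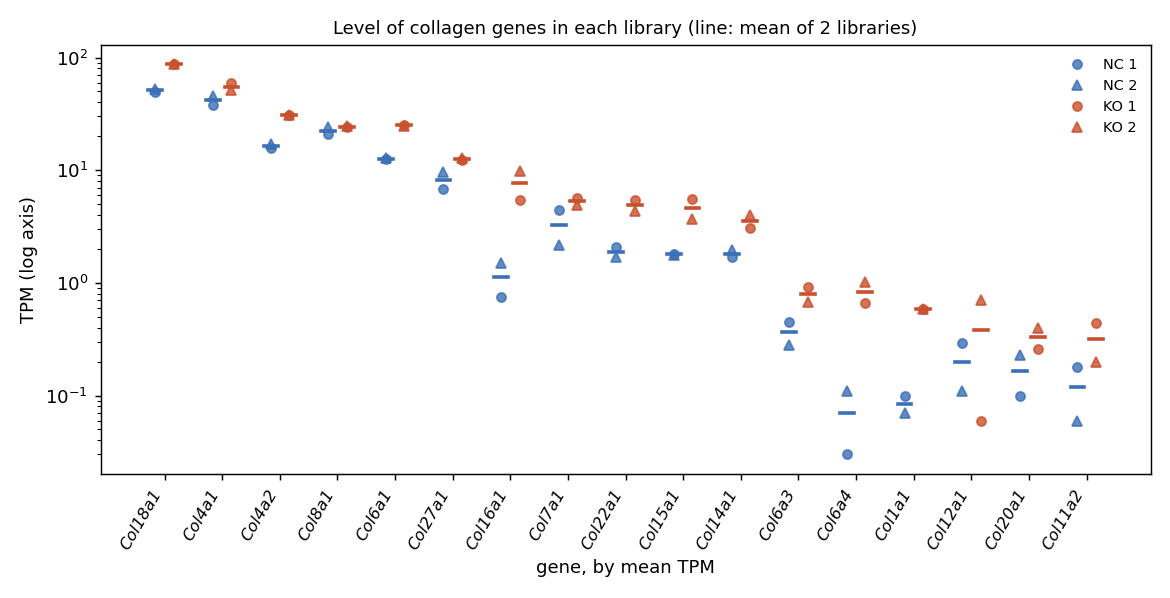
TPM of the 17 tested collagens in each library on a log axis, ordered by mean level, with circles for replicate 1, triangles for replicate 2 and lines for group means. Col18a1 and Col4a1 lead in each library, at 37.9 to 87.3 TPM. Col4a2 lies below Col8a1 in both NC libraries and above it in both KO libraries.

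Of the 27 collagens that were not tested, 9 had no count and 18 had between 1 and 26 counts over all libraries. Their counts added up to 11 and 15 in NC and 36 and 60 in KO. More counts fell in KO than in NC for 15 of the 18, and in NC for 2, Col28a1 and Col5a1. Over all genes listed, 16192 and 16800 had a count in the NC libraries against 17501 and 17759 in the KO libraries. The same split was not counted over all untested genes, so it is not read as particular to collagens. Col23a1, a transmembrane collagen, was read 4 and 10 times in KO and not at all in NC. Col9a1, at 3 and 6 counts in NC against 5 and 4 in KO, was equal in sum. These genes are too shallow for a test, and their counts are given as read.

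The integrins split. Of 17 tested subunits 7 were higher in KO, 1 was lower and 9 did not pass, which is 47.1% called against 37.9% of all genes. With a mean of at least 2 CPM there were 13, of which 6 were higher and 7 did not pass, or 46.2% against 39.5% of all genes at that level, and their median log2 fold change was 0.38. Counting higher calls alone, these were 7 of 17 against 19.7% of all genes, and 6 of 13 against 19.6% at a mean of at least 2 CPM. The alpha subunits summed to 463 and 512 TPM in NC and 614 and 616 TPM in KO, and the beta subunits to 160 and 171 TPM in NC and 197 and 181 TPM in KO. Of the alpha subunits 6 of 11 tested were higher, against 1 of 6 beta subunits. The difference between these fractions was not tested.

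The 3 most abundant subunits did not pass. Itga3, a laminin-binding alpha subunit, had 227 and 235 TPM in NC and 265 and 248 TPM in KO, at a log2 fold change of 0.10 with an SE of 0.09 (adjusted p = 0.433, 95% interval -0.09 to 0.29). Itga6, the other main laminin-binding alpha subunit, had 139 and 169 TPM in NC and 188 and 185 TPM in KO, at a log2 fold change of 0.21 with an SE of 0.10 (adjusted p = 0.0897). Without NC 2 Itga6 passed, at 0.31 (adjusted p = 0.0452). Itgb1, the shared beta partner of most matrix-binding alpha subunits, had 105 and 110.5 TPM in NC and 110.1 and 112 TPM in KO. Its log2 fold change was -0.019 (SE 0.09, adjusted p = 0.894), with a 95% interval of -0.21 to 0.17 and a sign that turned to 0.0068 with upper-quartile scaling and to 0.044 on the log2(TPM + 1) scale.

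Of the tested Itgb1 partners that bind collagen or fibronectin, Itga1, Itga2, Itga5 and Itgav were higher, while Itga4, Itga10 and Itga11 did not pass. Itga2, a collagen receptor subunit, went from 30.6 and 36.8 TPM in NC to 47.6 and 52.4 TPM in KO, at a log2 fold change of 0.52 with an SE of 0.10 (adjusted p = 0.000131). Itga5, the classical fibronectin receptor subunit, went from 18.7 and 20.02 TPM to 28.3 and 28.9 TPM, at a log2 fold change of 0.38 with an SE of 0.09 (adjusted p = 0.00242). In neither gene did the groups overlap. Itga1, also a collagen receptor subunit, lies 20995 bases from Itga2 on chromosome 13 and was rare, with 9 and 10 counts in NC against 22 and 37 in KO. Its log2 fold change of 1.54 with an SE of 0.46 (adjusted p = 0.00696) did not pass without KO 2 (1.13, adjusted p = 0.192) or with DESeq2 (adjusted p = 0.0695), and it shares exons with Gm49395 on the same strand.

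Itgav, the alpha subunit of the receptors for vitronectin, fibronectin and latent TGF-beta, had the lowest p of the integrins. It measured 39.7 and 46.8 TPM in NC and 77.8 and 86.8 TPM in KO, and 2103 and 3003 counts in NC against 3747 and 4421 in KO. The log2 fold change was 0.61 (SE 0.10, adjusted p = 2.30e-05). TPM shows a larger step than the counts, and the estimated length was 5193 and 5419 bases in NC and 4475 and 4425 bases in KO. The gene lies on chromosome 2 at 83724397 to 83806916 and overlaps exons of Gm13684 on the other strand. As a share of all integrin alpha TPM, Itgav was 8.58% and 9.13% in NC and 12.7% and 14.1% in KO, or 9.14% and 10.1% against 11.7% and 13.0% with 1 length per gene.

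None of the beta subunits that pair with Itgav passed. Itgb5 had 29.3 and 33.9 TPM in NC and 47.3 and 32.6 TPM in KO, where 1 KO library lay inside the NC range, and a log2 fold change of 0.054 with an SE of 0.10 (adjusted p = 0.691). Its value turned to -0.020 without NC 1 and to -0.013 without KO 1. Itgb3 had 2.82 and 3.54 TPM in NC and 3.63 and 3.48 TPM in KO (0.10, SE 0.14, adjusted p = 0.599), and it turned to -0.020 without NC 1. Itgb6 had 1.07 and 1.54 TPM in NC and 2.18 and 1.69 TPM in KO (0.33, SE 0.26, adjusted p = 0.331). Itgb8 had no count.

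Itgb4, which pairs with the Itga6 product in hemidesmosomes and binds the laminin that holds Lama3 and Lamb3, was the only beta subunit among the tested 6 to be called higher. It had 18.4 and 19.8 TPM in NC and 32.5 and 29.9 TPM in KO, at a log2 fold change of 0.49 with an SE of 0.09 (adjusted p = 0.000138). Its ratio to Itga6 was 0.132 and 0.118 in NC and 0.173 and 0.161 in KO, without overlap. The gene lies on chromosome 11 at 115974709 to 116008412, and its exons overlap B230344G16Rik on the other strand.

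Itgb7, a beta subunit best known from gut-homing lymphocytes, was the only member called lower. It had 29 and 37 counts in NC against 14 and 9 in KO, or 3.16 and 2.05 TPM against 1.45 and 0.56 TPM. The log2 fold change of -1.59 with an SE of 0.42 (adjusted p = 0.00292) did not pass without KO 2 (-1.29, adjusted p = 0.0728). Its alpha partner Itgae had 0 and 3 counts in NC against 4 and 6 in KO, and Itga4 had 5 and 14 counts in NC against 23 and 14 in KO (0.89, SE 0.51, adjusted p = 0.165; exons overlap Cerkl on the other strand).

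The remaining called alpha subunits were low. Itga7, a laminin-binding subunit typical of muscle, had 17 and 14 counts in NC against 39 and 42 in KO, at a log2 fold change of 1.29 with an SE of 0.38 (adjusted p = 0.00685), and its exons overlap Mettl7b on the other strand. It did not pass without NC 2 (1.02, adjusted p = 0.0766), without KO 2 (1.25, adjusted p = 0.0601) or with DESeq2 (adjusted p = 0.0622). Itga2b, the platelet fibrinogen receptor subunit, had 21 and 16 counts in NC against 40 and 62 in KO, a log2 fold change of 1.36 with an SE of 0.36 (adjusted p = 0.00296) that did not pass without KO 2 (1.03, adjusted p = 0.118). On the TPM scale its groups overlapped, at 5.24 and 2.79 in NC and 2.67 and 9.21 in KO. Itga10 did not pass (0.45, SE 0.26, adjusted p = 0.188). Its value fell to -0.0011 without NC 2 and its call was gained without NC 1 or without KO 1, and it shares exons with Gm42957 on the same strand. Itga11 had 16 and 8 counts in NC against 22 and 17 in KO (0.60, SE 0.48, adjusted p = 0.333).

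Leukocyte integrins were near 0. Itgb2, the beta subunit of that group, had 3 and 1 counts in NC against 4 and 1 in KO, Itgam had 2 and 4 against 6 and 10, Itgal had 1 and 3 in KO only, and Itgax and Itgad had at most 1 count per library. Itga8 had 1 count and Itga9 none.

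**Figure D5:**
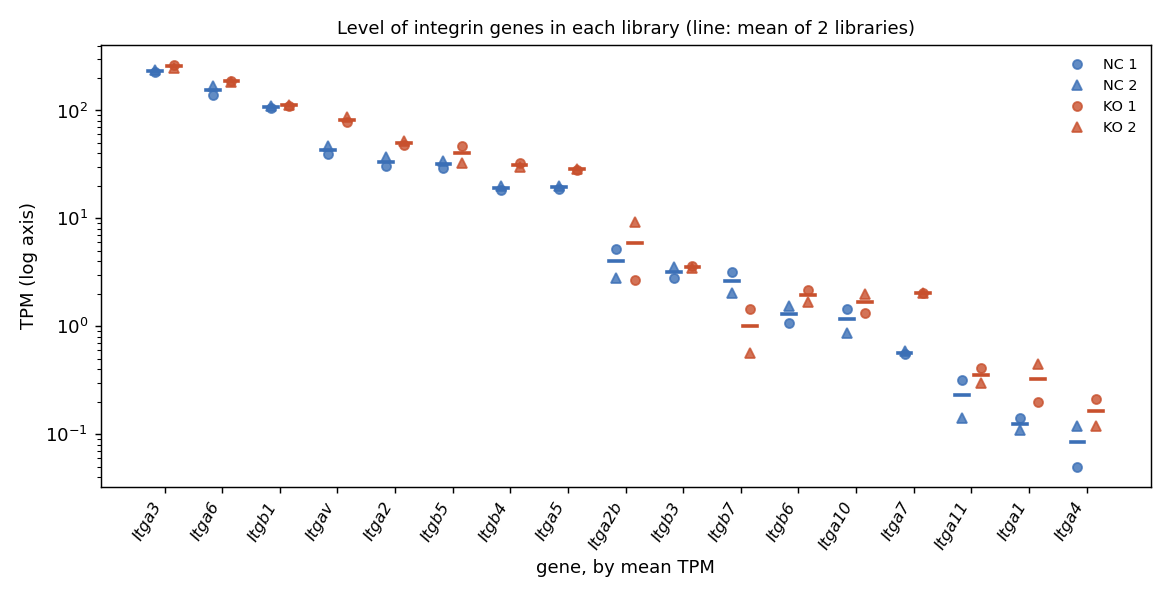
TPM of the 17 tested integrin subunits in each library on a log axis, ordered by mean level, with circles for replicate 1, triangles for replicate 2 and lines for group means. The 3 most abundant, Itga3, Itga6 and Itgb1, show small distances between groups, while Itgav, Itga2, Itgb4 and Itga5 lie clearly higher in KO and Itgb7 lower.

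The 5 further lists of genes that work with these families were read from the same fit. Of 25 matrix glycoproteins and basement membrane linkers 12 were tested, 6 higher and 2 lower, or 66.7% called against 37.9% of all genes. Fn1, which encodes fibronectin, the ligand of Itga5 and Itgav, was at 614 and 716 TPM in NC and 1218 and 1255 TPM in KO, a log2 fold change of 0.88 with an SE of 0.10 (adjusted p = 2.33e-07). The basement membrane proteoglycan genes Hspg2 (0.86, SE 0.10, adjusted p = 2.14e-07) and Agrn (0.58, SE 0.09) were also higher, as was Fbln1 (0.78, SE 0.12). Efemp2 (-0.26) and Thbs1 (-0.24), named after their values were seen because they were the 2 lower genes, fell by less.

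Non-integrin receptors for collagen and laminin had 9 of 14 tested, 3 higher and none lower, or 33.3% called against 37.9% of all genes. The 3 were Bcam, a receptor for the Lama5 chain (90.9 and 99.6 TPM in NC, 158 and 140 TPM in KO, log2 fold change 0.59, SE 0.09, adjusted p = 1.12e-05), the syndecan Sdc4 (0.55, SE 0.09) and the dystroglycan gene Dag1 (0.51, SE 0.10). The adaptors and focal adhesion proteins behind the integrins moved both ways: of 28 tested out of 31, 6 were higher and 5 lower, or 39.3% called against 37.9% of all genes. The actin-linking gene Vcl (0.91, SE 0.11) and the tetraspanin gene Cd81 (0.49, SE 0.09) were higher, and the kinase gene Src (-0.49, SE 0.09) was lower.

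Of 25 matrix proteases and inhibitors 17 were tested, 7 higher and 2 lower, or 52.9% called against 37.9% of all genes. Plat, which encodes tissue plasminogen activator, went from 46.0 and 54.3 TPM in NC to 113 and 107 TPM in KO, at a log2 fold change of 1.08 with an SE of 0.09 (adjusted p = 1.06e-09). Adam9 (0.49, SE 0.09) and Mmp9 (0.58, SE 0.13) were among the other higher genes of this list. Among genes for collagen folding, processing and crosslinking other than the prolyl and lysyl hydroxylases, 19 of 20 names were found and 11 tested, 4 higher and 2 lower, or 54.5% called against 37.9% of all genes. Adamts14, a procollagen N-proteinase (0.98, SE 0.22), and Sec23a, a coat protein of the vesicles that carry procollagen (0.51, SE 0.12), were higher. Pcolce2, a procollagen proteinase enhancer (-0.82, SE 0.14), and the convertase gene Furin (-0.36, SE 0.09) were lower. Serpinh1, the collagen-specific chaperone, named after its value was seen, had 1 count in KO 1 and none in the other libraries.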

How the data were processed

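Total RNA of 4 Hepa1-6 cultures was extracted and made into strand-keeping libraries, per the labels' protocols. STAR, RSEM, FastQC and DESeq2 and the builds GRCm38 and mm10 are named, without versions or settings, per the submitters' processing notes. The authors' expected counts, TPM and FPKM are gene-level values, 1 file per sample, with column names of RSEM per the file headers. Expected counts are estimates that share reads among similar genes. TPM also divides by a length estimated in each library. The deposited FPKM values were not used. The strand setting and annotation release are not given in the sources used here. Values of genes whose exons overlap another gene are therefore uncertain.

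Expected counts were rounded to whole numbers and filtered with edgeR's filterByExpr, which asks for about 10 counts at the median depth (0.757 CPM) in at least 2 libraries. All 12510 genes that passed were fitted with TMM scaling and edgeR's quasi-likelihood test, two-sided, in a design that held the group alone. The versions were edgeR 4.0.16 and R 4.3.3. The test was first tried on simulated counts with known changes in a small set of well-counted genes and a fixed spread. That trial does not cover genes with low counts. Alternatives used DESeq2 1.42.0 and limma 3.58.1 on log2(TPM + 1) or log2(TPM + 0.1). CPM and TPM errors are SDs over 2 samples. Same-numbered samples did not deviate together (correlation of deviations -0.0116). No effect shared by a number was seen, but with 2 libraries per group this cannot exclude a pairing. No pair of replicates agreed within sampling noise (chi-square per degree of freedom 6.88 for NC and 9.44 for KO). All 81 members matched GENCODE M21 (GRCm38) by ID, 79 with the same version.

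The members and gene lists were chosen with earlier results of these data known. Values in each sample are given for the up to 10 collagens, 5 laminins and 8 integrins with the lowest p past 0.05, the 3 most abundant of each family and their known partners, and up to 4 genes with the lowest p of each further list. Some genes that this rule names are counted in their group but not reported here. Intervals cover counting error and the spread of these cultures only.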

Additional observations from a re-analysis of the deposited data

How the results depend on the processing

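Replicate numbers name no common source, so the block on them is an alternative only. With the replicate block 12 collagens, 7 laminins and 8 integrins were called, as without it, and the number of genes called over all genes was 5006. It changed no call among the members. Every member called in counts kept its direction under each alternative.

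Limma on log2(TPM + 1) without a filter set genes called over all genes to 0, hence 0 collagens, laminins, integrins and listed partner genes. At an unadjusted p under 0.05 it had 4506 genes, 12 collagens, 7 laminins, 5 integrins and 37 partner genes, and its medians were 0.14 for collagens, 0.65 for laminins and 0.15 for integrins. With the filter, log2(TPM + 1) called 2158 genes (68.0% higher, against 51.9% in counts), 9 collagens, 6 laminins, 6 integrins and 24 partner genes, with medians of 0.61, 0.94 and 0.31. For log2(TPM + 0.1) these were 2099 genes, 5 integrins and 22 partner genes (37 in counts), with the laminins median log2 fold change at 1.5004 and that of integrins at 0.51. The cause was not tested. Lama3, Col4a1, Col27a1, Col6a3, Col20a1, Itga1 and Itga2b lost their calls in both filtered TPM fits, and Itgb7 in the second. Without a filter on low counts the medians were 1.44 for collagens and 0.40 for integrins. At a mean of at least 2 CPM, a choice added after seeing the data, they were 0.74, 1.04 and 0.38.

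Leaving out 1 library gave 3507 to 4488 genes called over all genes, 10 to 12 collagens, 7 laminins, 4 to 9 integrins and 31 to 37 partner genes. The 4 integrins are those without KO 2. Medians ran from 0.82 to 0.96 for collagens, 1.04 to 1.27 for laminins and 0.33 to 0.42 for integrins. A lone library is assumed to vary like the others. Signs turned only in members that were not called: Col12a1 (0.17, 0.33 and 0.17 in the TPM fits), Col8a1 (-0.011 to 0.14 when 1 library was left out), Itga10 (-0.0011 to 1.01), Itgb3 (-0.020 to 0.24), Itgb5 (-0.020 to 0.13; -0.013 without KO 1) and Itgb1 (-0.081 to 0.038; 0.0068 with upper-quartile scaling and 0.044 in the TPM fits).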
